A study of Mus musculus with 3 samples.

Results

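The genes described here are 10 early response genes of the AP-1 system in mouse kidney glomeruli: Fos, Fosb, Jun, Junb, Jund, Atf3, Nr4a1, Ier2, Dusp1 and Zfp36. They were taken by name, as every probe set whose single gene symbol in the platform annotation was 1 of these 10, which gave 12 probe sets for 10 of the 18193 genes measured. Jun and Jund had 2 probe sets each and the other 8 genes had 1. Expression was measured in isolated glomeruli taken at 8 weeks of age from male mice of the nondiabetic fvb/nj strain, all on the same chow, with 1 Affymetrix array for each of 3 mice. The RNA of each mouse came from a pool of about 1000 glomeruli, so it mixes the cell types of the glomerulus with any other cells carried along. The series was designed around diabetic OVE26 mice, which were not analysed here, so there is 1 group, FVB at 8 weeks, and no comparison between groups.

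Immediate early genes are transcribed within minutes of a stimulus, without new protein synthesis, by factors such as SRF with its ELK partners and CREB that are already present in the cell. AP-1 is a dimer of basic leucine zipper proteins, in which a Jun protein pairs with a Fos protein, with another Jun protein or with an ATF protein. Most of these transcripts are short-lived, and they are known to be induced while tissue is dissociated, so their level in isolated glomeruli may differ from that in the intact kidney.

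Values are log2 GCRMA expression values, in which a difference of 1 is a 2-fold difference, and errors are SD over the 3 mice. A gene was counted as above background when its probe set exceeded, on all 3 arrays, the 95th percentile of the 78 olfactory and vomeronasal receptor probe sets (2.59, 2.92 and 2.86 in mice 1, 2 and 3). Of the 10 genes, 9 were above background, against 58.2% of all 18193 genes. Fosb was below it in every mouse. Probe sets differ in how strongly they bind, so values of different probe sets were not set against each other.

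The upstream sequences of the 3 genes that differed by at least 2-fold between the mice (Fos, Atf3 and Nr4a1), and of Dusp1, the gene with the smallest spread, are shown to give the sequence around the starts of the genes that varied and of 1 that varied little. Each is the 250 bases before the annotated start, 5′ to 3′ on the strand of the gene, from RefSeq on GRCm38.p6. Capitals mark the half-site of the cyclic AMP response element, TGACG, on either strand, where it reads CGTCA on the opposite one.
Fos, chr12:85473640-85473889, plus strand: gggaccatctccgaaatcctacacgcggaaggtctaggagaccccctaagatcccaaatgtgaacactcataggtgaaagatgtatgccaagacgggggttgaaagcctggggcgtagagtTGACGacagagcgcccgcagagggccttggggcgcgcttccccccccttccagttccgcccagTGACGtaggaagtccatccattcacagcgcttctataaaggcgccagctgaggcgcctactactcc
Atf3, chr1:191183334-191183583, minus strand: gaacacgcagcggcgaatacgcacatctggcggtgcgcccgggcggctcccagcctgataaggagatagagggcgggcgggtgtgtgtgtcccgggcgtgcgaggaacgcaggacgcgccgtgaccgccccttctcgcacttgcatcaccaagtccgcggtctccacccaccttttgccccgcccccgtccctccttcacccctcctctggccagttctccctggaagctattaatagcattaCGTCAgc
Nr4a1, chr15:101266596-101266845, plus strand: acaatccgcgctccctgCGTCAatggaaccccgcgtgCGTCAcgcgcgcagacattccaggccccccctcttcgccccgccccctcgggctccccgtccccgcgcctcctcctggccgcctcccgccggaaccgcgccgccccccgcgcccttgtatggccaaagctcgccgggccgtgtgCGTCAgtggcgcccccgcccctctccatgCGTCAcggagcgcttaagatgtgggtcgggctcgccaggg
Dusp1, chr17:26508473-26508722, minus strand: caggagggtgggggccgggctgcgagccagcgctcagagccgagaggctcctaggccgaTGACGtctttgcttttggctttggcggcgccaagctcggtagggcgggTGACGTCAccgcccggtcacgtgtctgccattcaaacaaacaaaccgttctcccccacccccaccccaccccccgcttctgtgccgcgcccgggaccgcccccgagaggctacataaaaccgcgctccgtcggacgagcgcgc
RefSeq windows were found for 9 of the 10 genes; Ier2 had none in the table used. At least 1 half-site stood in 6 of these 9 windows, against 17.8% of 32851 promoter windows of the same length, and base composition was not taken into account. Nr4a1 had 4 half-sites, at 233 to 229, 213 to 209, 69 to 65 and 40 to 36 bases before the start, and 0.137% of all windows had 4 or more. Fos had 2, at 129 to 125 and at 66 to 62 bases before the start. Atf3 had 1, at 7 to 3 bases before the start. Dusp1 held the full palindromic element TGACGTCA at 143 to 136 bases before the start, found in 1.55% of all windows, and that element holds 2 of its 3 half-sites. The AP-1 motif, TGACTCA or TGAGTCA on either strand, was in 0 of the 9 windows and in 4.46% of all windows. The CArG box bound by SRF was in the window of Zfp36 and in 1.47% of all windows. These matches describe letters in the windows and are not evidence of binding. Only exact matches to the motif patterns were counted, so sites that differ from them were not found. Sites more than 250 bases before the start were not searched. A gene without a match may therefore have a variant site in its window or a site further upstream.

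**Figure D1:**
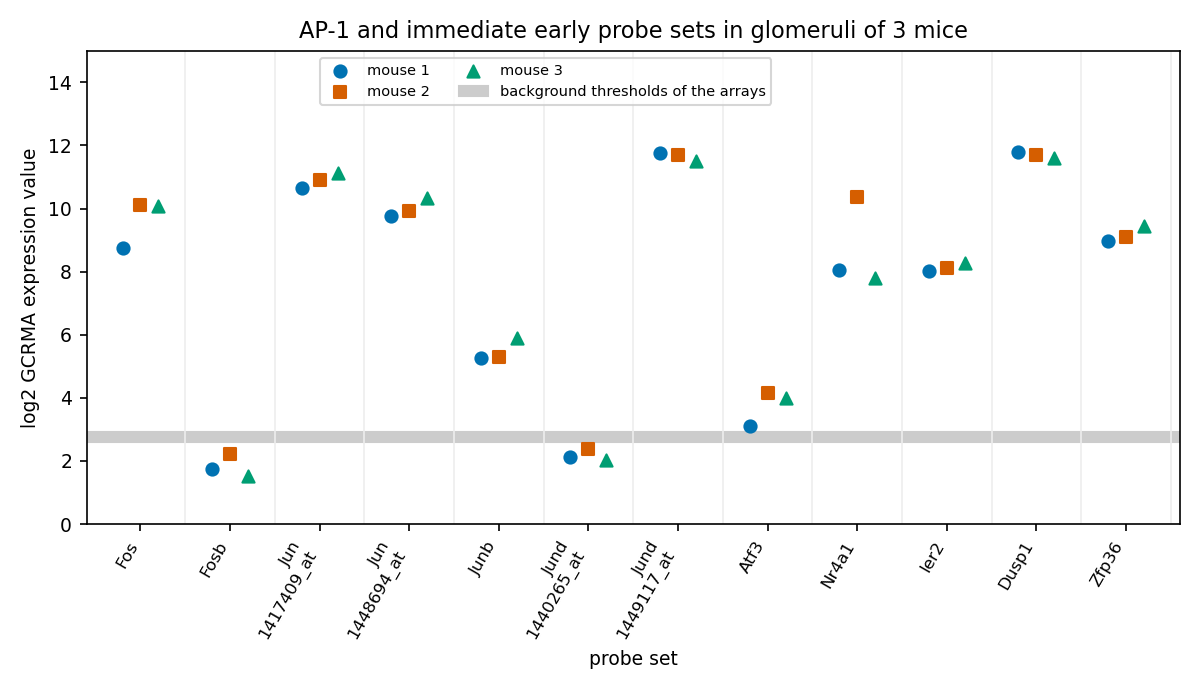
Log2 GCRMA expression value of the 12 probe sets in mice 1, 2 and 3, with the grey band spanning the background thresholds of the 3 arrays. Fosb and 1 probe set of Jund lie below the band in all mice, Nr4a1 stands high in mouse 2 at 10.36, and Fos stands low in mouse 1 at 8.75.

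Among the Fos proteins, Fos was clearly measured and Fosb was not. Fos, the namesake partner of Jun in AP-1, was at 8.75, 10.10 and 10.09 in mice 1, 2 and 3. Mice 2 and 3 were almost the same, and both were higher than mouse 1, by 2.56-fold in mouse 2 and 2.55-fold in mouse 3. The mean of Fos was 9.65 ± 0.78 (SD, n = 3), and its SD lay at the 97.5th percentile of the 10592 genes above background. Mouse 1 at least 2-fold below both other mice was seen for 0.878% of those genes. Of the 9 genes described here that were above background, Fos alone had that pattern. Fosb, which encodes a close relative of Fos, was at 1.73, 2.21 and 1.52, under the thresholds of 2.59, 2.92 and 2.86. Its differences between mice therefore carry no order.

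The Jun proteins can pair with each other as well as with Fos. None of their genes had a 2-fold range, and the SD lay at the 69.8th percentile of all genes above background for Jun, the 86.5th for Junb and the 36.4th for Jund. Jun was at 10.66, 10.91 and 11.12 in mice 1, 2 and 3 (10.90 ± 0.23), with mouse 3 over mouse 1 at 1.38-fold. Its second probe set gave the same order of mice at 9.77, 9.93 and 10.32, with mouse 3 over mouse 1 at 1.46-fold. Both probe sets were thus lowest in mouse 1 and highest in mouse 3. Junb, which often restrains the activity of Jun, was at 5.27, 5.30 and 5.91 (5.49 ± 0.36), with mouse 3 over mouse 1 at 1.55-fold. Mice 1 and 2 differed by only 0.03, and their order turned round after quantile normalization (5.31 and 5.30). Jund, the Jun protein that is usually present in resting cells, was at 11.75, 11.69 and 11.52 (11.65 ± 0.12), with mouse 1 over mouse 3 at 1.17-fold. The second probe set of Jund, built on an expressed sequence tag, was at 2.14, 2.39 and 2.03 and below background in all mice, so that the level of Jund rests on 1 probe set.

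Atf3, a stress-induced member of the ATF family that dimerises with Jun proteins, was dim. It was at 3.09, 4.16 and 3.99 in mice 1, 2 and 3 (3.75 ± 0.57), or 0.51, 1.24 and 1.13 above the thresholds of the 3 arrays. Mouse 1 was the lowest, and mouse 2 over mouse 1 was 2.09-fold and mouse 3 over mouse 1 1.86-fold. Fos was also lowest in mouse 1, with mice 2 and 3 almost the same. At a stricter threshold, the 99th percentile of the receptor probe sets, Atf3 was no longer above background in all mice, which left 8 of the 10 genes.

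Of the other transcription regulators, Nr4a1 had the widest spread of the genes described here and Ier2 varied little. Nr4a1, also known as Nur77, encodes an orphan nuclear receptor that is induced by many of the same stimuli as Fos. It was at 8.04, 10.36 and 7.79 in mice 1, 2 and 3 (8.73 ± 1.42), so mouse 2 alone was high. On the log2 scale mouse 2 minus mouse 1 was 2.32, and mouse 2 over mouse 3 was 5.92-fold, while mice 1 and 3 differed by 1.18-fold. The SD lay at the 99.4th percentile of all genes above background. Mouse 2 at least 2-fold above both other mice was seen for 0.378% of them, and for Nr4a1 alone among the 9 genes. Ier2, which encodes a small nuclear protein of the early response, was at 8.02, 8.11 and 8.26 (8.13 ± 0.12), and mouse 3 over mouse 1 was 1.18-fold.

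Of the genes that dampen the response, Dusp1 had the smallest SD of the 9 genes above background and Zfp36 the middle one. Dusp1, a phosphatase that switches off the stress-activated kinases p38 and JNK, was at 11.78, 11.68 and 11.59 in mice 1, 2 and 3 (11.69 ± 0.10), with mouse 1 over mouse 3 at 1.14-fold. Zfp36 encodes tristetraprolin, which binds AU-rich elements and promotes decay of early response and cytokine mRNAs. It was at 8.97, 9.10 and 9.44 (9.17 ± 0.24), and mouse 3 over mouse 1 was 1.38-fold. Both were far above background in every mouse, and neither reached a 1.5-fold range.

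**Figure D2:**
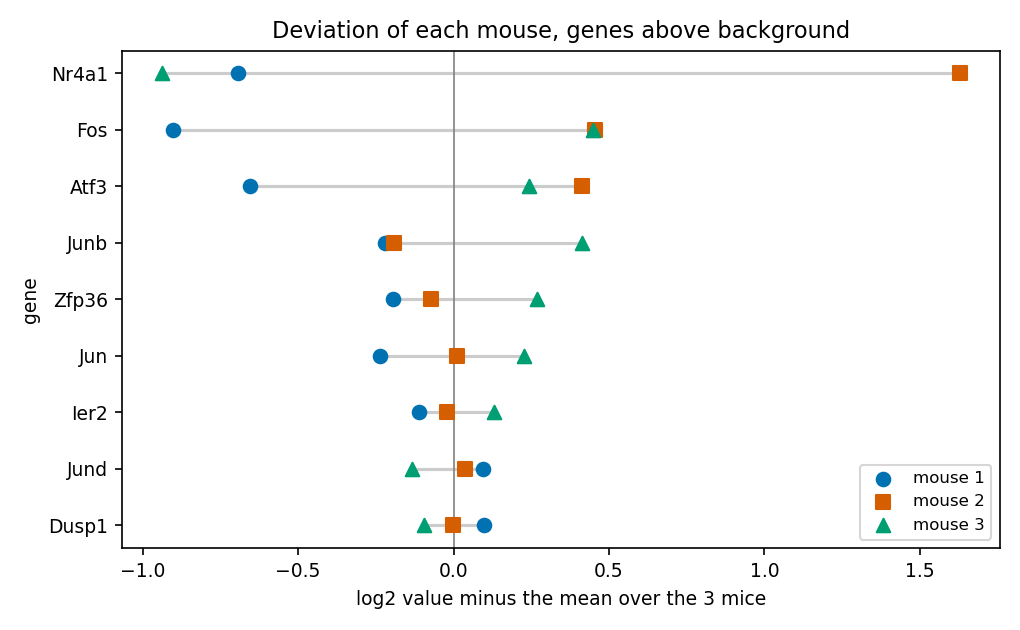
Log2 value of each mouse minus the mean over the 3 mice, for the 9 genes above background, ordered by SD with the widest at the top. Nr4a1 is high in mouse 2, Fos and Atf3 are low in mouse 1, and Jund and Dusp1 have the opposite order of mice to Ier2, Jun, Zfp36 and Junb, the last of which changes its order after quantile normalization.

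The spread between mice was set against that of all genes above background. Of the 9 genes, 3 (Nr4a1, Fos and Atf3) had a range of at least 2-fold, where 5.94% of the 10592 genes did, 4 had a range of at least 1.5-fold, where 18.1% did, and 1 had a range of at least 3-fold, where 2.28% did. The median SD of the 9 genes was 0.240, beside a median of 0.157 over all genes above background, whose interquartile range was 0.0903 to 0.260. Single mice carried these ranges. Without mouse 1 only Nr4a1 kept a 2-fold range, with a median SD of 0.121, without mouse 2 only Fos kept one, and without mouse 3 the median SD was 0.0861 with 3 genes at 2-fold or more. In those settings 3% (without mouse 1), 3.43% (without mouse 2) and 2.97% (without mouse 3) of all genes above background had a 2-fold range. The median SD of the genes described here was below that of all genes without mouse 1 (0.121 and 0.128) and without mouse 3 (0.0861 and 0.120), and above it without mouse 2 (0.328 and 0.135). Excess variance was tested with limma, one-sided, by setting the variance of each gene against the distribution fitted over all genes above background. No gene of the 9, and 0% of all genes, passed a Benjamini-Hochberg adjusted p of 0.05, while 2 of the 9 and 4.63% of all genes had an unadjusted p under 0.05. The adjusted p was 0.603 for Nr4a1 and 0.708 for Fos in the limma test, and 0.972 or 0.978 for the other 7. The 3 arrays give this test few degrees of freedom. Even the gene with the largest SD, Hspa1a with a 60.4-fold range, had an adjusted p of 0.471 in the limma test. That no gene passed therefore says little, and the ranges above are a description of 3 mice.

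**Figure D3:**
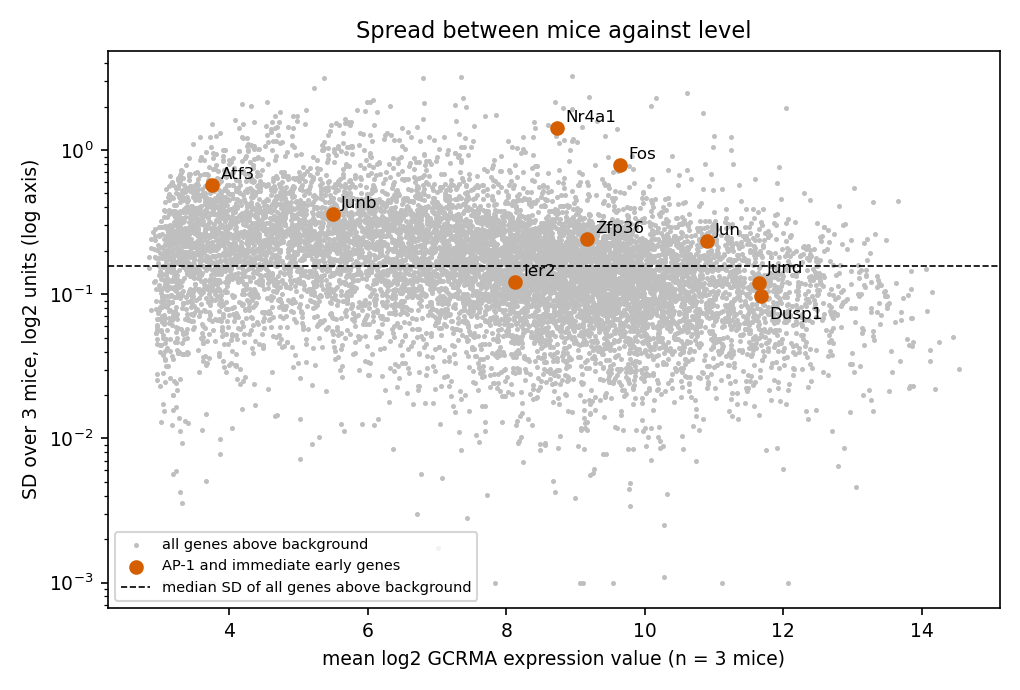
SD over the 3 mice, in log2 units on a log axis, against the mean log2 GCRMA expression value, for the 10592 genes above background (grey; SDs under 0.001 are drawn at 0.001) and the 9 genes described here (orange). Nr4a1 and Fos lie at the upper edge for their level, Jund, Dusp1 and Ier2 lie under the median SD of 0.157, and no gene passed the adjusted test.

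The order of the mice sorted the 9 genes into 4 patterns. Ier2, Jun, Junb and Zfp36 were lowest in mouse 1 and highest in mouse 3, an order shown by 18.8% of all genes above background. After quantile normalization 3 of these 4 kept that order, Junb being the exception. Fos and Atf3 were lowest in mouse 1 and highest in mouse 2, as were 14.5% of all genes. Fos differed by only 0.006 between mice 2 and 3, so its order of these mice is not resolved. Dusp1 and Jund were highest in mouse 1 and lowest in mouse 3, as were 17.6%, and Nr4a1 was highest in mouse 2 and lowest in mouse 3, as were 14.1%. In all, 6 of 9 were lowest in mouse 1, where 33.3% of all genes were, 0 were lowest in mouse 2 (35%) and 3 in mouse 3 (31.7%). Of the 9 genes 4 were highest in mouse 3 (36.3% of all genes), 3 in mouse 2 (28.6%) and 2 in mouse 1 (35.1%). No gene had an order with mouse 2 lowest, which 18.6% (mouse 3 highest) and 16.4% (mouse 1 highest) of all genes had. The median difference of a mouse from the average of the remaining ones was -0.33 for mouse 1, 0.02 for mouse 2 and 0.34 for mouse 3, beside 0.00, -0.02 and 0.01 over all genes above background.

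Relatives of these genes in the same families were read from lists. These and the gene lists below were chosen with earlier results of these data known. Of 14 other AP-1 and ATF or MAF family genes, 13 had a probe set and 9 exceeded background, where 58.2% of all genes did. The limma test was passed by 0 of the 9, and 1 had a 2-fold range, where 5.94% of all genes above background did. Fosl2, which encodes the Fos protein Fra-2, was that gene, at 9.84, 11.17 and 10.003 in mice 1, 2 and 3, a 2.52-fold range with mouse 2 the highest. Fosl1, which encodes Fra-1, was below background in all mice (1.97, 2.32 and 1.97), like Fosb. The median SD of the 9 was 0.166. Among the Fos proteins, Fos and Fosl2 were thus the ones above background, and mouse 1 was the lowest for both. Their profiles differed, as Fosl2 was high in mouse 2 alone, whereas Fos was almost the same in mice 2 and 3. The other Fosl2 probe set was below background in all mice (2.35, 2.44 and 2.20), so the level of Fosl2 rests on 1 probe set.

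The other NR4A receptors also had their highest value in mouse 2. Nr4a3, which encodes NOR1, was at 5.24, 9.24 and 5.96 in mice 1, 2 and 3, a 16.0-fold range. It was the only probe set of Nr4a3 above background, of 3. Nr4a2, which encodes NURR1 and was chosen after its values were seen, as the remaining NR4A receptor, was at 7.67, 8.28 and 7.57, a 1.63-fold range. Of its 5 probe sets above background 3 were highest in mouse 2, among them a dim probe set at 3.05, 3.20 and 2.95. The other 2, which were also dim, were highest in mouse 1 or mouse 3. Neither Nr4a1 nor Nr4a3 passed the adjusted limma test. Loop and distal tubule markers were highest in mouse 2 as well, for 4 of 5 genes above background with a median difference of 1.21, and so was every one of the 18 spiked bacterial and phage controls, by 0.54 in the median. Of 4 smooth muscle markers above background 3 were highest there too, with a median difference of 0.45. Of all genes above background 28.6% were highest in mouse 2. The part of these markers and controls in the NR4A values was not tested.

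**Figure D4:**
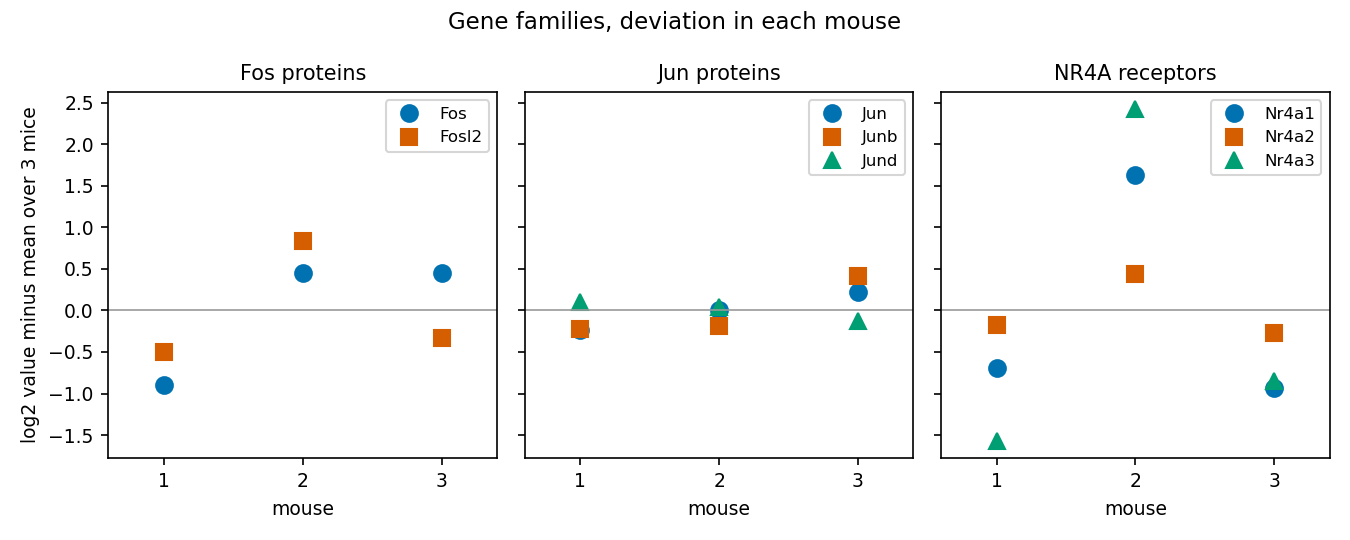
Log2 value in each mouse minus the mean over the 3 mice, for Fos and Fosl2, for Jun, Junb and Jund, and for Nr4a1, Nr4a2 and Nr4a3. The NR4A receptors are highest in mouse 2, and no Jun gene has a 2-fold range. Fos and Fosl2 are lowest in mouse 1, but Fosl2 is high in mouse 2 alone.

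Further early response genes were also lowest in mouse 1 in most cases. Among them were Nr4a3, lowest in mouse 1, and Nr4a2, lowest in mouse 3. Of 35 such genes, all with a probe set, 30 exceeded background, where 58.2% of all genes did. A 2-fold range was seen for 5 of the 30, where 5.94% of all genes above background had one. The limma test was passed by 0, and their median SD was 0.344. Mouse 1 was the lowest for 19 of the 30, where it was for 33.3% of all genes above background, with a median difference of -0.36. Besides Nr4a3, the genes with a 2-fold range were Pim1, a survival kinase gene (4.99, 5.29 and 6.92 in mice 1, 2 and 3), Ppp1r15a, which encodes the stress phosphatase subunit GADD34 (5.94, 7.11 and 7.44), Gadd45b, a stress response gene (7.32, 8.14 and 8.72), and Egr1, an early zinc finger factor gene (8.43, 9.54 and 9.21). All were lowest in mouse 1 on the probe set with the highest mean. Another Gadd45b probe set above background was at 7.41, 7.42 and 8.34, a 1.91-fold range with mice 1 and 2 almost the same. The other Pim1 probe set, not above background in all mice, was lowest in mouse 2 (2.72, 2.56 and 3.06). Egr2 was at 2.59, 2.52 and 2.87 and not above background in all mice.

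The kinases and factors that switch these genes on had about the same spread as all genes above background, whose median SD was 0.157 and of which 5.94% had a 2-fold range. Of 23 upstream kinases and factors, 19 had a probe set, 18 exceeded background, 0 had a 2-fold range and 0 passed the limma test, with a median SD of 0.156. Srf, which encodes the factor that binds the serum response element, was at 8.41, 8.63 and 8.61, and Elk1, a gene for one of its partners, was not above background in all mice (2.87, 2.43 and 2.66). Of 14 genes for phosphatases related to Dusp1, relatives of Zfp36 and other proteins that bind AU-rich RNA, 13 exceeded background, 0 had a 2-fold range and 0 passed the limma test, with a median SD of 0.196. Dusp4 was at 6.34, 5.72 and 5.45, and Dusp2, a phosphatase gene of activated immune cells, was below background (2.33, 2.07 and 1.97). The median differences of the upstream list were -0.09, 0.00 and 0.11 in mice 1, 2 and 3, against -0.33, 0.02 and 0.34 for the 9 genes described here.

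Heat shock genes are also induced by handling of tissue. Of the 12 above background, 9 were lowest in mouse 1, where 33.3% of all genes above background were. Their median difference was -0.74 in mouse 1, 0.32 in mouse 2 and 0.40 in mouse 3. A 2-fold range was seen for 5 of the 12, where 5.94% of all genes above background had one, and 0 passed the limma test. The widest were the near-identical HSP70 genes Hspa1a (5.21, 10.51 and 11.13) and Hspa1b (9.79, 12.96 and 13.36), then Hsph1 (9.81, 11.35 and 11.80) and the co-chaperone gene Dnajb1 (9.49, 11.31 and 10.37). The genes closest to Fos in their profile over the 3 mice, by Euclidean distance between mean-centred log2 values, were Fxyd2, Dnaja1 and Trim65. Fxyd2, a regulator of the sodium pump found in the renal tubule, was at 8.98, 10.28 and 10.22 (distance 0.0805). Dnaja1, a co-chaperone of HSP70, was at 11.05, 12.32 and 12.43 (distance 0.0864), and Trim65, a ubiquitin ligase gene, was at 5.65, 7.18 and 7.15 (distance 0.133). In all, 18 genes lay within 0.25 of Fos. Nr4a1 had 0 genes within 0.25, and its closest were Cbarp (5.77, 7.82 and 5.77, distance 0.369), Adamts16 (5.26, 6.99 and 5.05, distance 0.495) and Atp6v1b1, a subunit gene of the proton pump (3.76, 5.94 and 4.19, distance 0.614). With 3 arrays a profile holds few independent values, and closeness says nothing of shared control.

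Marker genes of several cell types also differed between the mice. The glomerular label matched its defining markers, as all 7 podocyte, 8 glomerular endothelial and 6 mesangial markers with a probe set were above background. Their median differences lay between -0.12 and 0.17 in any mouse. The largest differences of single markers were 0.45 in mouse 1 (endothelial), -0.43 in mouse 3 (podocyte) and -0.41 in mouse 2 (mesangial). Proximal tubule markers, 9 of 10 above background, had mean log2 levels of 5.74, 6.46 and 8.45. They were lowest in mouse 1 for 8 genes (33.3% of all genes above background) and highest in mouse 3 for 8 genes (36.3%). Distal nephron markers, 5 of 10 above background, had mean log2 levels of 7.33, 8.77 and 8.29. Scnn1b was below background in all mice. Leukocyte markers, 7 of 12 above background, had mean log2 levels of 7.06, 5.84 and 4.86. They were highest in mouse 1 for 6 genes, where 35.1% of all genes above background were. Cd68, Itgam, Cd3e and Cd79a were below background in all mice. Of 4 erythroid markers with a probe set 2 were above background, at mean log2 levels of 3.56, 3.17 and 3.24, and of 5 smooth muscle markers 4 were, with median differences of -0.04, 0.45 and -0.41 in mice 1, 2 and 3. The excess of the 3′ over the 5′ control probe set, in log2 units, which reflects RNA quality, was lowest in mouse 1 for actin (1.49, 1.81 and 2.05), Gapdh (0.48, 1.08 and 0.92) and the transferrin receptor (0.05, 0.33 and 0.16), and lowest in mouse 2 for pyruvate carboxylase (1.41, 1.21 and 2.29). The part of the tubule, smooth muscle and leukocyte markers and of RNA quality in the values of the genes described here was not tested. In RNA from pooled glomeruli, fewer cells of a type and less RNA per cell cannot be told apart.

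**Figure D5:**
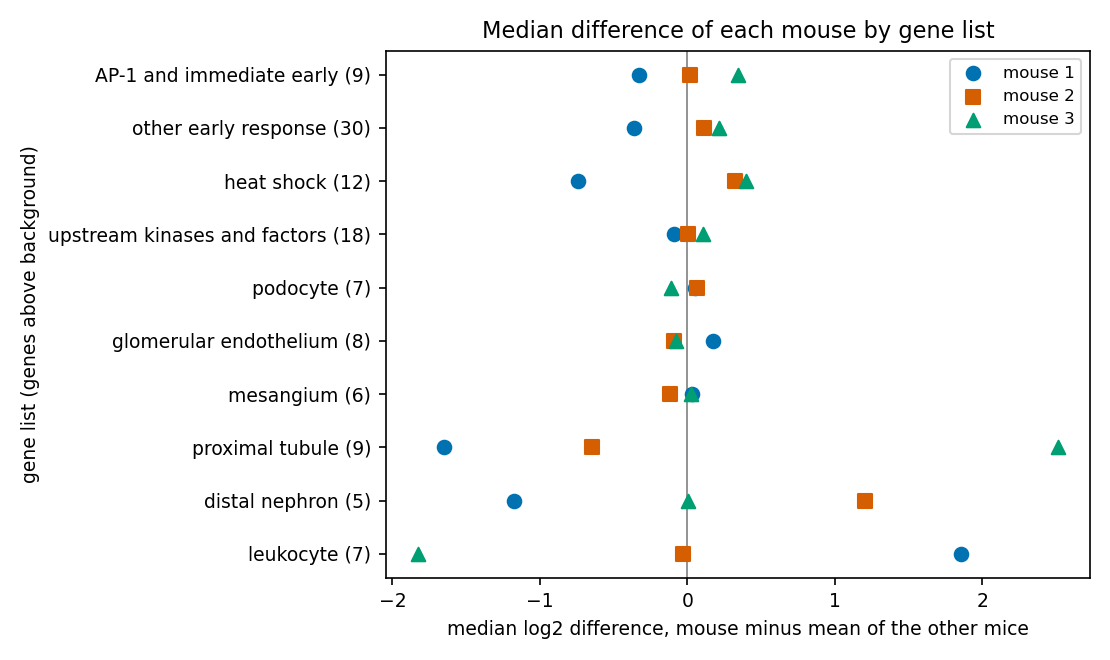
Median log2 difference of each mouse from the average of the remaining mice, for the 9 genes described here, related lists and cell type markers, with the number of genes above background in brackets. The medians of the 9 genes lie between -0.33 in mouse 1 and 0.34 in mouse 3. Medians of tubule and leukocyte markers spread more widely, and those of glomerular markers stay near 0.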

How the data were processed

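Expression was measured in glomeruli of 3 FVB mice with 1 array each, and the groups and mouse numbers come from the sample titles. Per the submitters' processing notes the authors summarised the arrays with GCRMA (version not given in the sources used here). The deposited values were read as log2, a scale inferred from their range (0.67 to 14.76) and not stated in the labels. RNA integrity scores were above 8, per the labels' protocols. Which arrays were normalized together is not known. After GCRMA, 2.18% to 2.49% of probe sets had the same value on 2 arrays, which lowers their SD. No member probe set was tied.

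Of 45101 probe sets, 34945 had 1 gene symbol in the platform annotation, 932 had several and were not used, and 64 were controls. All 12 member probe sets matched the reference gene table (GRCm38.p6) by gene identifier and symbol. The probe set with the highest mean stood for a gene. Genes above the background threshold on all arrays (10592) were tested with limma 3.58.1 in R 4.3.3 (intercept fit, variance prior with trend and robust fit, upper-tail p, Benjamini-Hochberg adjustment). The test was run on simulated data whose variance prior had more degrees of freedom than the prior fitted here (3.11). That run therefore does not show what the test could detect in these data. Samples were not compared in groups. The number of arrays and signal over background limit the precision. There were 0 value columns left unused.

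The members and gene lists were chosen with earlier results of these data known. Named genes are all members, the first 2 genes of each further list, up to 4 genes per list with a 2-fold range, and the 3 genes nearest in profile to Fos and to the member with the largest SD. Nr4a2, Ptgs2, Tnf, Il6 and some markers were named beyond this rule. Alternatives were the mean over probe sets, other background thresholds, quantile normalization, centring of arrays, other variance priors, other fold ranges and leaving out each mouse.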

Additional observations from a re-analysis of the deposited data

How the results depend on the processing

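Counts of genes above background, of genes passing the limma test, of genes lowest in mouse 1 and of genes in the order mouse 1, mouse 2, mouse 3 stayed within 1.5 times of the reported value under every alternative run for them, and no gene passed the limma test in any. The alternatives for the order of the mice were chosen after the data were seen. Of 48 alternative values for these counts and for the spread, 43 stayed close. The count of genes with a 2-fold range was 3, and it was 1 at a 3-fold range (2.28% of all genes) and ran from 1 to 3 when each mouse was left out. The median SD of 0.240 ran from 0.0861 to 0.328 when each mouse was left out, which leaves 2 arrays, and it was below that of all genes without mouse 1 or mouse 3. For single genes, the adjusted limma p stayed above 0.05 in all 72 alternative values, with a range of 0.366 to 0.953 for Nr4a1 and 0.536 to 1 for Fos. Centring and quantile normalization shifted the median of the arrays by at most 0.04 in size. No paired analysis was possible because there is only 1 group. Signal over background limits Atf3 and Fosb most.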

Other observations

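Genes that AP-1 or tristetraprolin are known to regulate were read from a list chosen with earlier results of these data known. Of 16 such genes, 7 exceeded background in every mouse, where 58.2% of all genes did, and 7 in none. A 2-fold range was reached by 0, where 5.94% of all genes above background had one, and 0 passed the limma test. Their median SD was 0.152 beside 0.157 over all genes above background. Mouse 1 was the highest for 5 of the 7 and the lowest for 2, among them Ptgs2 (3.97, 4.88 and 4.94 in mice 1, 2 and 3). Ccnd1, which encodes cyclin D1, was at 11.70, 11.49 and 11.62 in mice 1, 2 and 3, and Plau, which encodes urokinase, was at 8.92, 9.24 and 8.94. The cytokine genes Tnf (1.98, 1.89 and 1.98) and Il6 (1.66, 1.63 and 1.75), whose mRNAs are targets of tristetraprolin, were below background in all mice and were chosen here after their values were seen. The median difference of this list was 0.15 in mouse 1, -0.01 in mouse 2 and -0.14 in mouse 3, beside -0.33, 0.02 and 0.34 for the AP-1 and immediate early genes.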
